A study of Mus musculus with 18 samples.

Results

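The ion channel and connexin genes described here are every gene in the deposited files whose symbol starts with Kcn, Cacn, Scn and a digit, or Gja, Gjb, Gjc or Gjd and a digit, or is Hcn and a digit. Of 13592 genes in the files, 60 matched: 32 potassium channel genes, 12 calcium channel genes, 8 connexins, 5 sodium channel genes and 3 HCN genes. A further 102 of the 162 annotated symbols that fit the rule had no named transcript in the files and were not analysed here. The series measured total RNA, depleted of ribosomal RNA, from the cardiac tissue of WT mice after 28 days of treatment. One group received saline, one angiotensin II (AngII, the vasoconstrictor hormone of the renin system) at 500 ng per kg per min, and one AngII at the same dose with ethoxysanguinarine (ETH, a plant alkaloid) at a daily 10 mg per kg. There were 6 libraries in each of the 3 groups, and the labels do not say that each came from its own animal, so p-values measure the spread between these samples only. The labels used here name no heart chamber, strain or age. Genes known from cardiomyocytes of any chamber summed to 2998 to 10290 FPKM in every library.

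The heartbeat is carried by ion channels that open and close in sequence. Sodium channels give the fast upstroke, calcium channels the plateau and the trigger for contraction, potassium channels the return to rest, and HCN channels the pacemaker current, while connexins form the gap junctions through which the impulse passes from cell to cell. Atrial and ventricular muscle, and the conduction tissue between them, are known to use different sets of these genes, and most channels are a pore protein with smaller auxiliary subunits.

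Levels are in FPKM, that is fragments divided by transcript length and by library size, so they can be compared between genes. The unit was inferred from the values. Of the 60 genes, 52 are listed in all 18 files, and the other 8 are in only one of the 2 transcript lists the files use. For testing, some group had to average 1 FPKM. This minimum was reached by 46 genes, of which 38 reached it in all groups and 8 in only some of them, among which are Cacna1c, Gjb5, Kcna1, Kcne1, Kcnip3, Kcnk5 and Kcnmb1. The 6 that did not reach it include Cacng6, Kcna4, Kcna6 and Kcnt2.

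The chamber markers differed widely within each group. For Myl7, a myosin light chain of atrial muscle, 3 libraries list 0: replicate 5 of saline, replicate 3 of AngII and replicate 4 of AngII+ETH. Their atrial genes Myl4 and Sln were also at most 1.70 and 0.205 FPKM. The 3 atrial genes did not always move together. In AngII+ETH replicate 3, Myl7 was only 573 FPKM while Myl4 was 3734 and Sln 706. The ventricular light chain gene Myl2 stood at only 3.77 FPKM in replicate 6 of saline and at 3.37 in replicate 5 of AngII, against 361 to 7060 in the others. The difference log2(Myl7 + 1) minus log2(Myl2 + 1), called the index below, therefore ran from -12.8 to 9.41, with 13 libraries between -3.63 and 3.28. With all libraries kept, exact permutation tests, two-sided, detected no group difference in it (adjusted p = 0.737 for each of the 3 comparisons, with 12 tests in the family). Among the 13, however, the index ran from -0.923 to 3.28 in saline, -1.56 to -0.992 in AngII and -3.63 to 1.405 in AngII+ETH. Every saline value of the 13 thus lay above every AngII value, so AngII and chamber makeup cannot be told apart there. The adipocyte hormone gene Adipoq reached 105.5 and 168.3 FPKM in replicates 4 and 6 of saline, and no other library passed 20.4. The tissue is bulk, so fewer cells of a type and less RNA per cell cannot be told apart.

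Only 3 of the 52 genes had a median over the 18 libraries above 50 FPKM. Kcnk3, a background potassium channel, led with 82.3, 111 and 132 FPKM as lowest, median and highest. Gja1, the main connexin of working heart muscle, had 75.2, 110 and 145 FPKM. Kcnj11, the pore of the ATP-sensitive potassium channel of heart muscle, had 33.0, 54.0 and 63.1 FPKM. All 3 were narrow in range. Kcnk3 and Gja1 cannot be ordered, because their ranges overlap, whereas every Kcnj11 library lay below every library of both.

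A further 11 genes had a median of 10 to 50 FPKM. They include Kcnip2, Kcnh2, Kcnj5, Kcnj3, Gja5, Kcnq1, Cacna2d1, Kcnj8, Kcnj12 and Gja3, in falling order of median, and each overlapped its neighbours. Their spread was unequal. Gja3, best known as a lens connexin, ran only from 7.51 to 14.5 FPKM, and Kcnj12, an inward rectifier of the resting potential, from 7.05 to 15.6. Kcnip2, the calcium-binding subunit of the transient outward channel, ran from 2.35 to 72.8 FPKM, and Gja5, the connexin of atrial muscle and the ventricular conduction system, from 0.175 to 48.6. Of the rest, 27 genes had a median of 1 to 10 FPKM and 11 of 1 FPKM or less.

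A pore that textbook physiology places at the centre of the cardiac action potential was listed low. Cacna1c, the pore of the L-type calcium channel, was 0 to 2.28 FPKM, with a median of 0.706. Its auxiliary subunits were listed higher, with medians of 16.4 FPKM for Cacna2d1 and 6.93 for Cacnb2. Between 10.4 and 15.7% of the FPKM in the transcripts common to all files lay in assembled transcripts without a gene name, so a gene can be listed too low, and whether any of these belongs to Cacna1c was not tested. Scn10a, Kcnd3, Kcnab1 and Gjd3 were not analysed here.

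**Figure D1:**
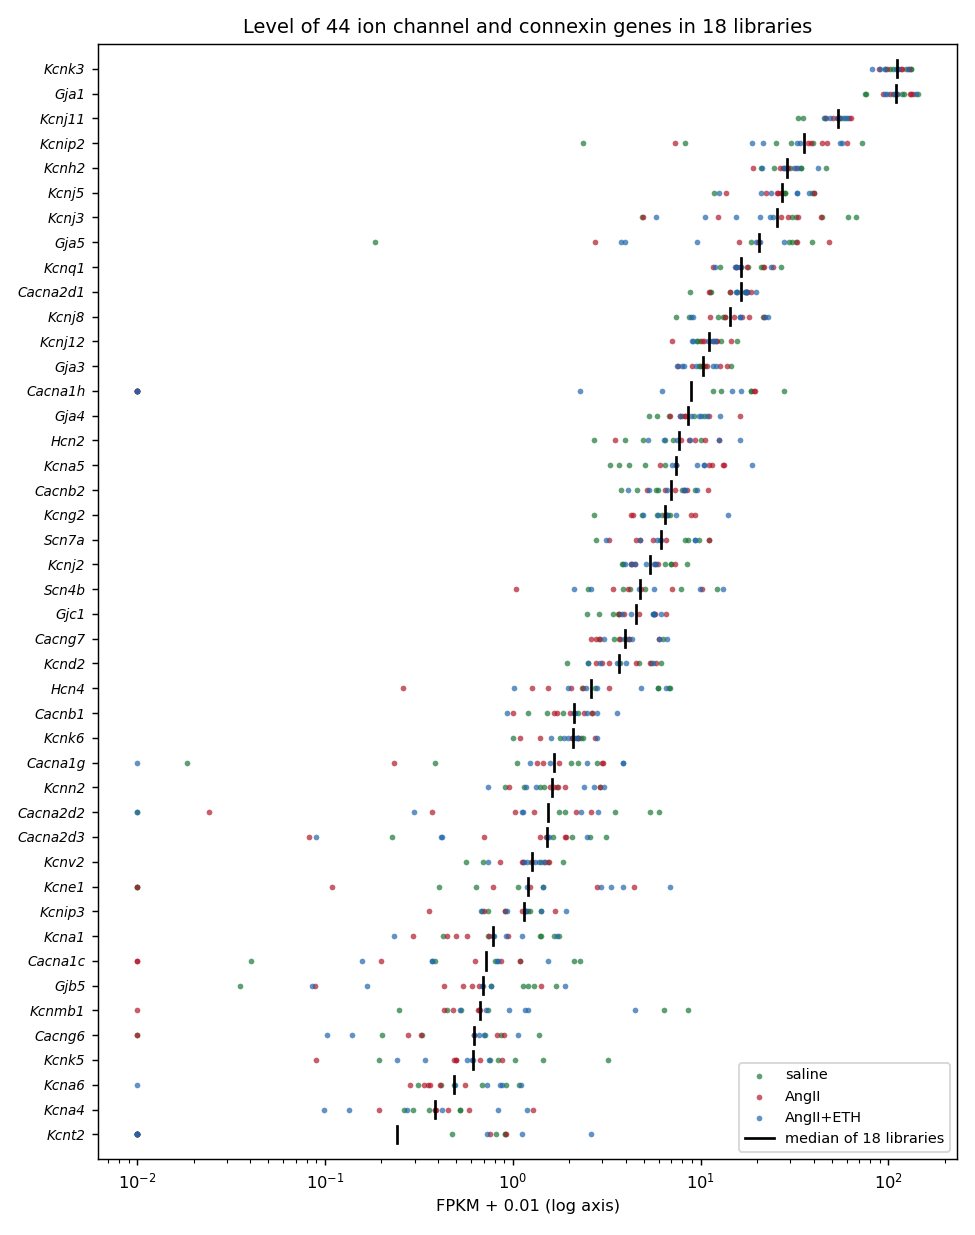
Level of 44 of the 52 genes listed in all files, in FPKM plus 0.01 on a log axis, with 1 point per library coloured by group and a bar at the median of the 18 libraries. Kcnk3, Gja1 and Kcnj11 are high and narrow, while Kcnip2, Gja5 and Cacna1h spread over more than an order of magnitude, and points at the left edge are libraries in which the gene is listed at 0.

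Along the index, from libraries dominated by Myl2 to libraries dominated by Myl7, 14 of the 46 tested genes rose and 10 fell (limma on log2(FPKM + 1), adjusted for treatment group, Benjamini-Hochberg adjusted p under 0.05 over all genes). Of all 11701 genes tested along the index, 32.6% rose and 7.3% fell. The share of members that rose, 30.4%, was thus near the background, and the share that fell, 21.7%, was above it. The median slope was 0.016 log2 units per unit of index for the members and 0.015 for all genes. By family, 5 of 25 potassium channel genes rose and 7 fell, 5 of 10 calcium channel genes rose and 1 fell, 2 of 3 sodium channel genes rose and 1 fell, 2 of 6 connexins rose and none fell, and 1 of 2 HCN genes fell. Adding 1 before taking logs makes the slopes of low genes too small.

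**Figure D2:**
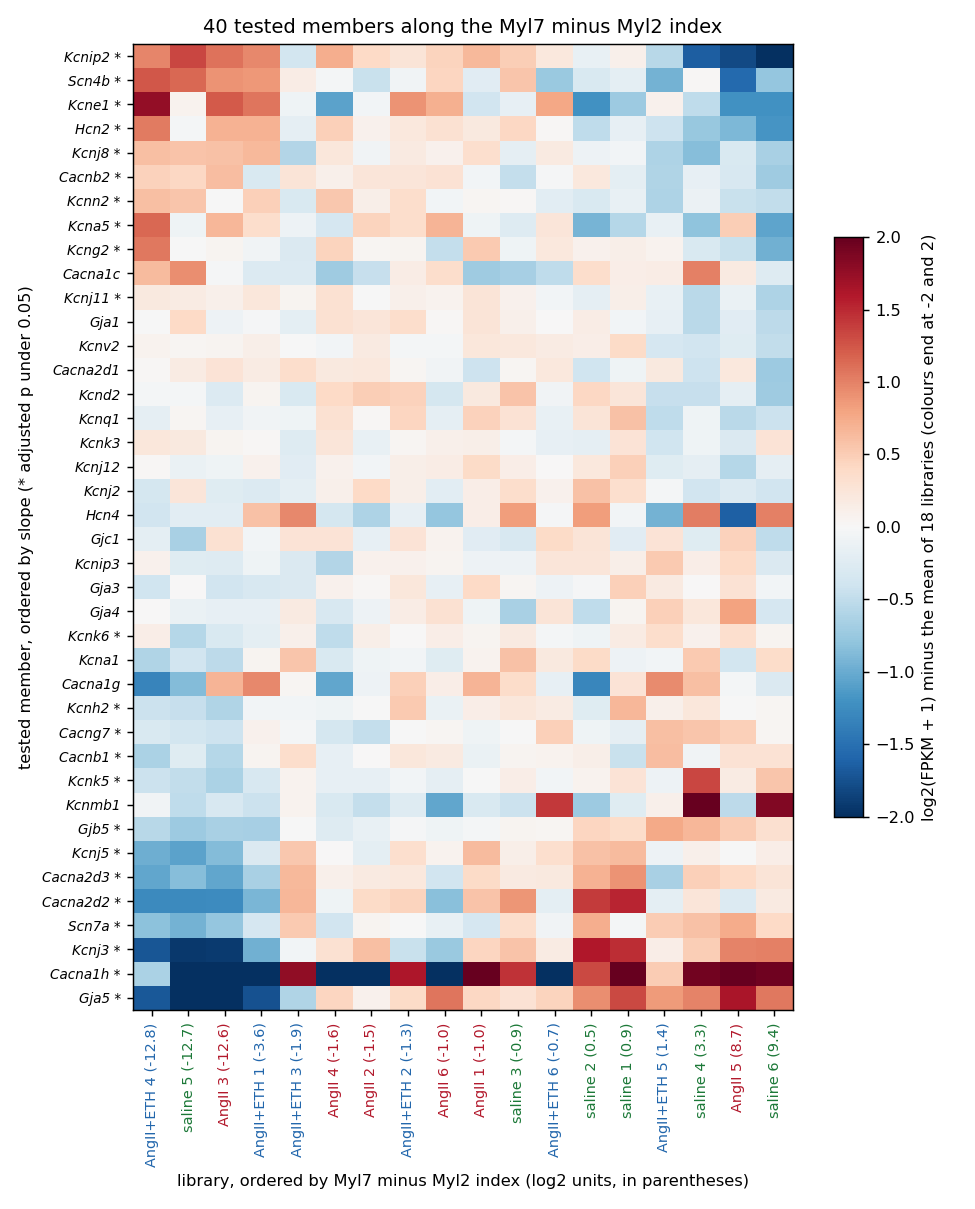
Each row is one of 40 of the 46 tested genes and each column a library, ordered from the lowest index (-12.8) to the highest (9.41); colour is log2(FPKM + 1) minus the gene's mean over 18 libraries, and label colours give the treatment group. Kcnip2 and Scn4b at the top are mostly red at the left and blue at the right, Gja5 and Kcnj3 at the bottom the reverse, and each of the 3 groups has a library at the left end.

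Among the connexins, Gja5 had the steepest slope. In the libraries that list Myl7 at 0 it was 0.175 (saline), 2.73 (AngII) and 3.95 FPKM (AngII+ETH). In the libraries with low Myl2 it was 32.2 (saline) and 48.6 FPKM (AngII), and in the other 13 it was 3.78 to 39.1. The libraries with Myl7 at 0 were thus below all others except AngII+ETH replicate 1, which has the fourth lowest index. Gja5 rose by 0.203 log2 units per unit of index (SE 0.028, limma adjusted p = 0.000117). The slope was also past the threshold within the 13 libraries that hold both markers above 10 FPKM (0.374, SE 0.094, adjusted p = 0.030). Without the 3 libraries with Myl7 at 0 it was 0.117 (SE 0.045, adjusted p = 0.095).

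Gjb5, a connexin known from epithelium, lies at 4:127354809-127358181 on the minus strand, beside Gja4 at 4:127311421-127314039 (GENCODE M21, GRCm38). Gjb5 was 0.025, 0.078 and 0.157 FPKM in the libraries with Myl7 at 0, and 0.076 to 1.88 in the others. It rose by 0.059 per unit of index (SE 0.011, limma adjusted p = 0.000869). It passed the filter in only some groups. Gja4, a connexin of endothelium, was 5.30 to 16.2 FPKM, with a slope of 0.022 (SE 0.012, adjusted p = 0.164). Gja1 had -0.021 (SE 0.010, adjusted p = 0.090), Gja3 0.019 (SE 0.009, adjusted p = 0.103) and Gjc1, a connexin of the conduction system, 0.015 (SE 0.011, adjusted p = 0.267). None of these 4 passed the threshold.

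The subunits of the acetylcholine-activated potassium channel, Kcnj3 and Kcnj5, which assemble with each other and are known for slowing the heart under vagal tone, both rose along the index. Kcnj3 was 4.86, 4.93 and 5.82 FPKM in the libraries with Myl7 at 0, 10.6 to 67.0 in the 13 with both markers, and 43.8 and 44.2 in the 2 with low Myl2. The libraries with Myl7 at 0 were the lowest of all, and the 2 with low Myl2 lay inside the range of the 13. Its slope was 0.139 (SE 0.022, limma adjusted p = 0.000284). Kcnj5 was 11.8, 13.7 and 12.6 FPKM where Myl7 was at 0 and 21.0 to 40.4 in every other library (slope 0.060, SE 0.016, limma adjusted p = 0.00672). Both slopes rest on the libraries with Myl7 at 0. Without these 3, Kcnj3 had 0.054 (SE 0.039, adjusted p = 0.354) and Kcnj5 had -0.015 (SE 0.024, adjusted p = 0.690).

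The subunit Kcnip2 had the steepest fall. It was 72.8, 60.5 and 56.4 FPKM where Myl7 was at 0, and 2.35 and 7.34 where Myl2 was low. The other 13 libraries lay between 8.26 FPKM, in saline replicate 4, and 55.5, in AngII+ETH replicate 1. The 3 libraries with Myl7 at 0 were thus the highest of all and the 2 with low Myl2 the lowest. It fell by 0.153 log2 units per unit of index (SE 0.025, limma adjusted p = 0.000293), and by 0.356 within the 13 libraries (SE 0.070, adjusted p = 0.016). Along Myl2 alone it had the steepest rise of the 12 members that rose (0.332 per log2 unit of Myl2, SE 0.033, adjusted p = 2.30e-05). Kcnd2, a pore with which this subunit assembles, was 1.93 to 6.13 FPKM and did not pass (-0.014, SE 0.016, adjusted p = 0.509).

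Hcn2, a pacemaker channel also found in ventricular muscle, fell along the index as well. It was 7.17, 12.5 and 16.1 FPKM in the libraries with Myl7 at 0, 3.94 to 12.5 in the 13 with both markers, and 2.69 and 3.51 in the 2 with low Myl2. The 2 libraries with low Myl2 were the lowest of all 18. Its slope was -0.069 (SE 0.013, limma adjusted p = 0.000992), and -0.219 within the 13 libraries (SE 0.046, adjusted p = 0.019). Hcn4, the main pacemaker channel of the sinus node, had no detectable slope (0.0003, 95% interval -0.050 to 0.051, adjusted p = 0.994). Among the members called along the index, Hcn2 and Kcnip2 passed under all 32 alternative settings, and Gja5 and Scn4b under 31. The fewest were 18 for Cacna2d2 and 19 for Kcnk6. Of the 32 settings, 18 leave out only 1 library.

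The sodium channel genes Scn4b and Scn7a went opposite ways. Scn4b, an auxiliary subunit, was 12.3, 10.2 and 13.2 FPKM where Myl7 was at 0, 2.52 and 1.04 where Myl2 was low, and 2.10 to 9.88 in the other 13. The 3 libraries with Myl7 at 0 were the highest of all, and the fall was -0.109 per unit of index (SE 0.015, limma adjusted p = 0.000126). Without the libraries with Myl7 at 0, 1 member rose and 8 fell, of which Hcn2, Kcnip2, Kcnj11 and Scn4b also fell with them. The shares of all genes under this setting are not given, so these counts cannot be set against a background. Scn7a, a channel that senses sodium levels and is known from glia and Schwann cells, was 2.75, 3.24 and 3.12 FPKM where Myl7 was at 0, 8.56 and 11.1 where Myl2 was low, and 4.53 to 11.03 in the others (slope 0.072, SE 0.012, adjusted p = 0.000315). The summed level of the 3 Schwann and nerve markers found was 0.241 to 0.503 FPKM where Myl7 was at 0 and 1.02 to 8.61 in the other 15 libraries. Its part in the slope of Scn7a was not tested.

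**Figure D3:**
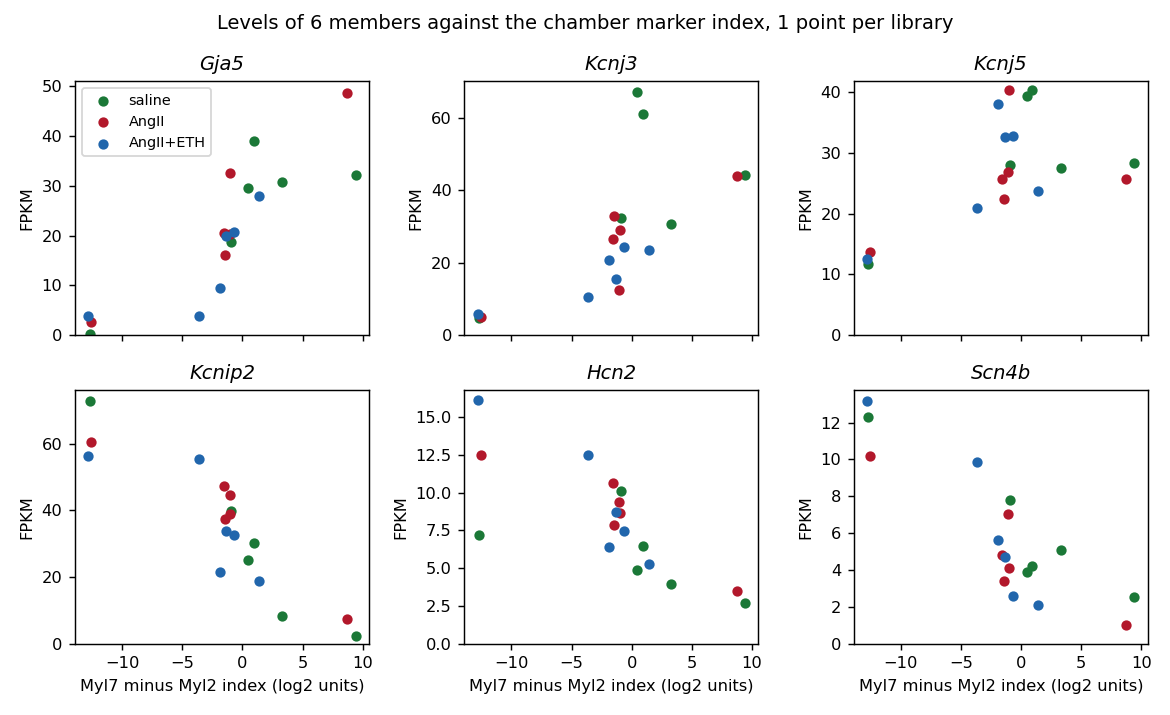
FPKM of 6 genes (vertical axes, starting at 0) against the index in log2 units, with 1 point per library coloured by group. Gja5, Kcnj3 and Kcnj5 are low in the 3 libraries near -12.8, while Kcnip2, Hcn2 and Scn4b are low in the 2 libraries near 9, and the 13 libraries between hold most of the remaining spread.

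The ATP-sensitive potassium channel genes fell by smaller amounts. Kcnj8, a pore known mainly from vascular smooth muscle and pericytes, was 21.6, 21.8 and 22.1 FPKM where Myl7 was at 0, 8.63 and 11.3 where Myl2 was low and 7.38 to 22.8 in the others (slope -0.056, SE 0.012, limma adjusted p = 0.00196). Kcnj11 was 54.7 to 59.0 FPKM where Myl7 was at 0, 33.0 and 46.3 where Myl2 was low and 35.0 to 63.1 in the others (-0.024, SE 0.008, adjusted p = 0.020). Their regulatory subunits, taken from the list of partners, moved apart. Abcc9 fell (-0.095, SE 0.019, adjusted p = 0.00145) and Abcc8 rose (0.084, SE 0.013, adjusted p = 0.000274). Abcc9 is known as the partner in ventricular and vascular channels and Abcc8 as the partner in the pancreas and, in mouse, the atrium.

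Of the delayed rectifier genes, Kcne1, an auxiliary subunit of the slow current, fell (-0.088, SE 0.019, limma adjusted p = 0.00225). It was listed at 0 in saline replicates 2 and 6 and AngII replicate 5. Where Myl7 was at 0, Kcne1 was 1.44 (saline), 4.43 (AngII) and 6.83 FPKM (AngII+ETH). The saline value lay inside the range of the 13 libraries with both markers, in which Kcne1 ran from 0 to 3.85 FPKM. Its pore partner Kcnq1, at 11.7 to 26.7 FPKM, did not pass (-0.013, SE 0.013, adjusted p = 0.428). Kcnh2, the pore of the rapid current, was 21.0, 19.0 and 21.4 FPKM where Myl7 was at 0 and 24.5 to 46.8 in the other 15 libraries, with 30.1 and 29.1 where Myl2 was low (slope 0.032, SE 0.010, adjusted p = 0.020). Kcna5, the pore of the ultrarapid current, fell (-0.040, SE 0.013, adjusted p = 0.025). The inward rectifiers Kcnj2 and Kcnj12 (-0.007 and -0.010) and the background channel Kcnk3 (-0.013) did not pass, with limma adjusted p of 0.67, 0.437 and 0.193.

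The remaining potassium channel calls were small. Kcnn2, a calcium-activated channel, was 0.730 to 3.05 FPKM and fell (-0.042, SE 0.012, limma adjusted p = 0.011). Kcng2, a subunit that modifies other channels, fell (-0.040, SE 0.014, adjusted p = 0.030), with 14.0 FPKM in AngII+ETH replicate 4 and 2.71 to 9.37 elsewhere. The background channels Kcnk5 and Kcnk6 rose (0.046 and 0.025, adjusted p = 0.0051 and 0.038), at 0.080 to 3.19 and 0.994 to 2.78 FPKM.

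Among calcium channel genes, the auxiliary subunits moved in both directions. Cacnb2, the main cardiac beta subunit, was 9.35, 10.9 and 9.60 FPKM where Myl7 was at 0, 3.75 and 5.21 where Myl2 was low, and 4.12 to 8.43 in the others. The libraries with Myl7 at 0 were the highest of all, and the slope was -0.046 (SE 0.010, limma adjusted p = 0.00188). Its relative Cacnb1, known as the skeletal muscle beta subunit, rose at 0.923 to 3.57 FPKM (0.040, SE 0.009, adjusted p = 0.00392). Cacna2d2 and Cacna2d3, both alpha-2-delta subunits, were at most 0.218 FPKM where Myl7 was at 0 and between 0.288 and 6.01 FPKM elsewhere, with slopes of 0.072 (SE 0.027, adjusted p = 0.046) and 0.066 (SE 0.018, adjusted p = 0.00798). Cacna2d1, the most abundant of them, did not pass (-0.016, SE 0.009, adjusted p = 0.178). Cacng7, a gamma subunit, rose (0.037, SE 0.010, adjusted p = 0.00765).

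The T-type pore Cacna1h was listed at 0 in 7 libraries (saline replicate 5, AngII replicates 2, 3, 4 and 6, AngII+ETH replicates 1 and 6), at 2.26 and 6.21 FPKM in AngII+ETH replicates 4 and 5, and at 11.7 to 27.8 in the other 9. It has 1 transcript in the files, of 8220 nucleotides, and a listed 0 can be a failed estimate. The slope was 0.181 (SE 0.061, limma adjusted p = 0.026). The other T-type pore in the files, Cacna1g, was 0 to 3.85 FPKM and did not pass (0.031, SE 0.028, adjusted p = 0.393).

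**Figure D4:**
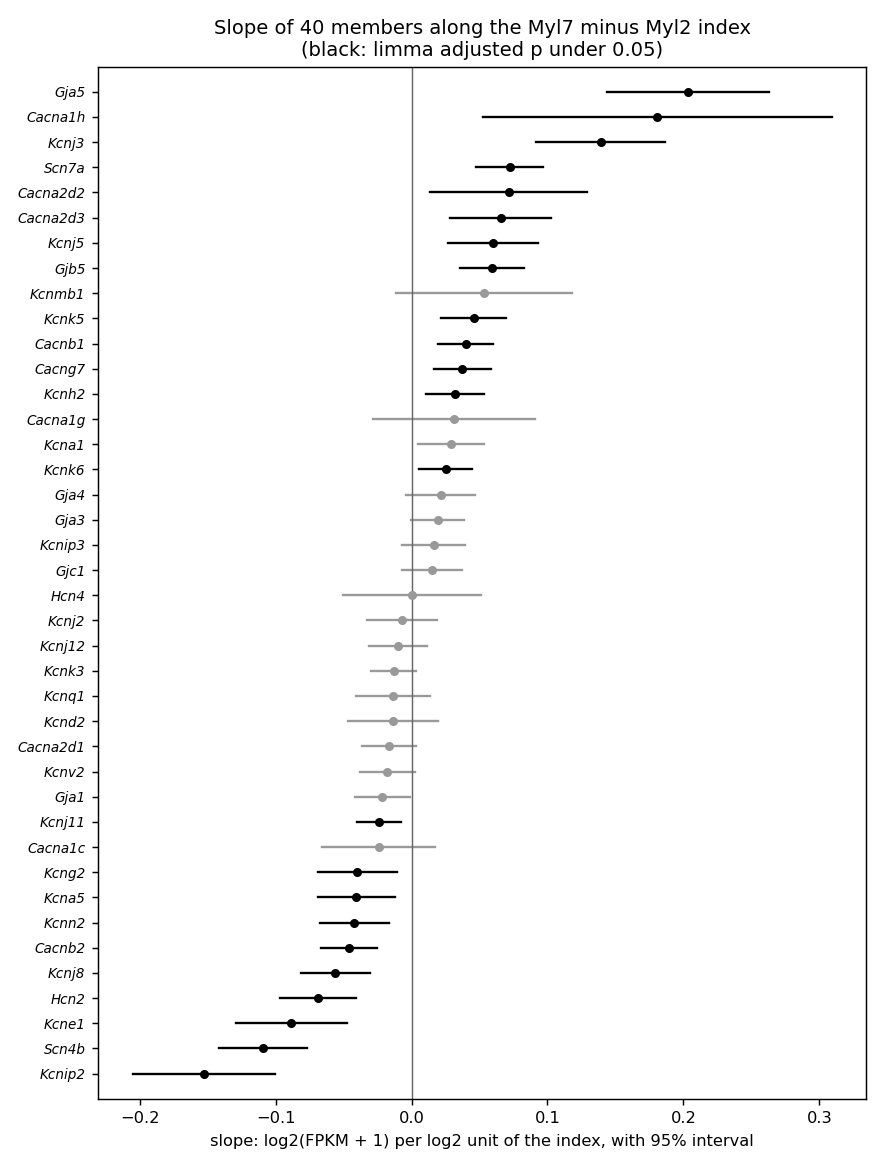
Slope of 40 of the 46 tested genes along the index, in log2(FPKM + 1) per log2 unit, with its 95% interval; black marks an adjusted p under 0.05. Gja5, Cacna1h and Kcnj3 stand at the top, Kcnip2, Scn4b and Kcne1 at the bottom, and the interval of Cacna1h is the widest.

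Taken separately, the markers gave related calls. Along Myl7 alone, 11 members rose and 5 fell, where 20% and 2.51% of all genes did. Along Myl2 alone, 12 rose and 2 fell, where 5.13% and 15.4% of all genes did. The 12 were Kcnip2, Hcn2, Scn4b, Kcnj11, Gja1, Kcnq1, Kcnv2, Kcnj12, Kcng2, Kcnj8, Cacnb2 and Kcnn2, and Scn7a was among the 2. Without the 3 libraries with Myl7 at 0 no member passed along Myl7. Without saline replicate 5 alone, 4 rose and 0 fell along Myl7. Along Myl2, 4 rose without saline replicate 6, 5 without AngII replicate 5 and 7 without saline replicate 5. The slope along the index did not differ detectably between treatment groups for any of the 46 genes (limma F test, 0 at the adjusted threshold, where 0% of all genes passed; 0 at an unadjusted p under 0.05, where 6.47% did).

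Markers of other cell types were counted along the index in the same test, in which 32.6% of all genes rose and 7.3% fell. All 4 tested fibroblast markers and all 4 tested adipocyte markers rose, as did 2 of 4 smooth muscle, 2 of 3 immune, 2 of 5 conduction and 1 of 2 nerve and Schwann markers. Of 4 endothelial markers 1 rose and 1 fell, 1 of 2 skeletal muscle markers fell (Ckm, also expressed in heart), and of 6 genes of cardiomyocytes of any chamber 1 fell (Tnni3). Of the chamber markers, 4 of 5 atrial ones rose and 2 of 3 ventricular ones fell. Summed, the fibroblast markers were 273 to 381 FPKM where Myl7 was at 0 and 512 to 1348 elsewhere. The defining adipocyte gene Adipoq was at most 0.158 FPKM where Myl7 was at 0. With the Adipoq level as a covariate, 5 members rose along the index (Gja3, Gja5, Gjb5, Kcnj3 and Scn7a) and 6 fell (Cacnb2, Hcn2, Hcn4, Kcne1, Kcnip2 and Scn4b). The part of the other cell types in these slopes was not tested. Without saline replicate 5, 7 members rose along the index. An index built from Myl4, Sln, Myl3 and Irx4 in place of Myl7 and Myl2 called 15 members as rising and 9 as falling, among them 14 and 9 of those above.

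The scaling shifted all genes. With quantile normalization 6 members rose and 14 fell, and with median-of-ratios scaling 11 rose and 15 fell, so the share of calls that were higher was 58.3% as deposited, 30.0% and 42.3%. The median slope of all genes was -0.002 and 0.001 under these scalings, against 0.015. The shares of all genes that rose or fell are not given for these scalings. Whether the share of falling members was above the background under them therefore cannot be read here.

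The bases upstream of the start are shown for 2 rising genes described above, Gja5 and Kcnj3, and 2 falling ones, Kcnip2 and Hcn2, chosen after their values were seen, so that the 2 directions can be read side by side. The sequences are from RefSeq (GRCm38.p6), the 250 bases before the RefSeq start, 5′ to 3′ on the gene's strand. Capitals mark a match to a searched motif on either strand.
Gja5, chr3:97032152-97032401, plus strand: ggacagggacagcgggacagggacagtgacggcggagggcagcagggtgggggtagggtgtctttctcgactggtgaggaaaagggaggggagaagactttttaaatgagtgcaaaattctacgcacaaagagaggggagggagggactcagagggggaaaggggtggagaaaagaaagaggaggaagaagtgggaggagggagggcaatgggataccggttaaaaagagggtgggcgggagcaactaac
Kcnj3, chr2:55435720-55435969, plus strand: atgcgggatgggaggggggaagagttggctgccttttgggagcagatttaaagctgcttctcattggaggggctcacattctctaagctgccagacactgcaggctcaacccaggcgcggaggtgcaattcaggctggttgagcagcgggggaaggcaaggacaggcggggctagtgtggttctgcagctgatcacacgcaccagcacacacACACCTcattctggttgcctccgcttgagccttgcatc
Kcnip2, chr19:45816064-45816313, minus strand: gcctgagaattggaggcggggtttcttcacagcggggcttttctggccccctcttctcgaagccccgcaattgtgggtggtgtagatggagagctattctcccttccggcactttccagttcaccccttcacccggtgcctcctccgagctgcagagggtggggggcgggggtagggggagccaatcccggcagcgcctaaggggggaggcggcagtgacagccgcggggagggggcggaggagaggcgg
Hcn2, chr10:79716384-79716633, plus strand: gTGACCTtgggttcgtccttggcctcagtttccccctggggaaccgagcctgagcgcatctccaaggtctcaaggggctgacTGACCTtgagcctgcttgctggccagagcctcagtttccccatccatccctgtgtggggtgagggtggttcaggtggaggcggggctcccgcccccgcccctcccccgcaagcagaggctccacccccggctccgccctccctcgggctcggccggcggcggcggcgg
The capitals in Kcnj3 are the T-box letters AGGTGT read on the other strand, 38 bases before the start. The capitals in Hcn2 are the COUP-TF half-site AGGTCA read on the other strand, 249 and 168 bases before the start. In Gja5 and Kcnip2 none of the searched letters is in this window.

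The motifs searched, on both strands, were, for GATA factors, AGATAA, for T-box factors AGGTGT, for NKX2-5 CAAGTG, for Iroquois factors ACANNTGT and for COUP-TF AGGTCA, with the MEF2 motif and, for the box near many starts, TATAAA. No letters are shared between the matches printed; in Gja3, not printed, a MEF2 and a TATA match overlap. A RefSeq start within 100 bases of the start of the main transcript was found for 21 of the 46 genes. Among 32851 RefSeq promoters of this length, 9.99% hold the GATA letters, 11.8% the T-box, 11.6% the NKX2-5, 3.20% the MEF2, 6.31% the Iroquois, 14.0% the COUP-TF and 12.4% the TATA letters. Of the 21 members, 3, 2, 3, 1, 0, 2 and 2 do, in the same order. By GC content the 4 windows differ, with 56.4% in Gja5, 58.4% in Kcnj3, 66.8% in Kcnip2 and 70.4% in Hcn2.

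Between the treatment groups no ion channel or connexin gene passed the threshold. For AngII against saline, limma called 0 of the 46 as higher and 0 as lower, where 0% and 0.00854% of 11703 genes were called. For AngII+ETH against AngII it called 0 and 0 (0% and 0% of all genes), and for AngII+ETH against saline 0 and 0 (0% and 0.00854%). No alternative setting gave a call. In none of the 3 comparisons did any member have groups that do not overlap, which 0.162% and 0.197%, 0.0342% and 0.0171%, and 0.359% and 0.248% of all genes did, higher and lower in turn. The median log2 change of the members was -0.053, 0.058 and 0.011, and that of all genes -0.057, 0.020 and -0.034. Since the AngII+ETH libraries come with their own transcript list, processing and ETH cannot be told apart in the last 2 comparisons. The 3 comparisons share groups.

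At an unadjusted p under 0.05, 2 members were higher and 3 lower in AngII than in saline, where 3.28% and 5.78% of all genes were. Of the lower members, Kcnk5 and Kcna1 passed the filter only through saline. All 4 tested adipocyte markers were lower in AngII at an unadjusted p under 0.05 in the same limma comparison and none passed the adjusted threshold. Their median log2 difference was -2.87. Adipoq itself differed by -3.1 log2 units (two-sided exact permutation p = 0.0325, adjusted p = 0.299 over 12 tests). Of the members, Kcna5 had the smallest p. Its lowest, median and highest were 3.29, 4.58 and 7.42 FPKM in saline libraries, 6.04, 11.3 and 13.4 with AngII and 7.08, 9.99 and 18.8 with AngII+ETH. AngII replicates 1 and 4 and AngII+ETH replicates 3 and 5 lay within the range of saline, whose highest value was in replicate 5, and the other 8 treated libraries lay above it. The log2 difference was 0.92 for AngII against saline (SE 0.23, limma adjusted p = 0.441) and 0.93 for AngII+ETH against saline (SE 0.23, adjusted p = 0.406). With the Adipoq level as a covariate the first was 0.44 (SE 0.23), and within the 13 libraries with both markers it was 0.81 (SE 0.23). In those 13, the index of saline and AngII did not overlap.

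Hcn4 was lower in AngII without passing. Its lowest, median and highest were 2.33, 5.90 and 6.86 FPKM in saline libraries, 0.251, 1.79 and 3.25 with AngII and 1.01, 2.62 and 6.57 with AngII+ETH. Saline and AngII overlapped through the 2 lowest saline libraries, replicates 1 and 5. The log2 difference was -1.15 for AngII against saline (SE 0.34, limma adjusted p = 0.486), 0.58 for AngII+ETH against AngII (SE 0.34, adjusted p = 1.0) and -0.57 for AngII+ETH against saline (SE 0.34, adjusted p = 0.711). With the Adipoq level as a covariate the first was -0.56, and with the index and Adipoq -0.11 (SE 0.31). The conduction system markers, summed, had medians of 11.6 FPKM in saline libraries, 5.11 with AngII and 5.64 with AngII+ETH, with 20.9 in AngII+ETH replicate 3, the library with the highest Hcn4 of its group. The part of that tissue in the Hcn4 values was not tested.

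Kcne1 was highest in AngII+ETH. Its lowest, median and highest were 0, 0.509 and 1.44 FPKM in saline libraries, 0, 1.00 and 4.43 with AngII and 1.18, 3.13 and 6.83 with AngII+ETH. It is listed at 0 in 2 saline libraries and 1 AngII library and in no AngII+ETH library, and the groups overlapped. Its mean was 0.585 FPKM in saline, 1.55 with AngII and 3.26 with AngII+ETH. It therefore passed the filter only through the treated groups, in which it was high. The log2 difference was 1.38 for AngII+ETH against saline (SE 0.40, limma adjusted p = 0.417) and 0.88 for AngII+ETH against AngII (SE 0.40, adjusted p = 1.0), where it was the one member with an unadjusted p under 0.05 (1 higher, 0 lower; 1.26% and 0.649% of all genes). The level is that of the transcript common to all files. A second Kcne1 transcript, of 3174 nucleotides, is in the AngII+ETH list only, at 0 to 1.91 FPKM, and was left out.

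Gjc1 and Cacna2d1, with Kcna5 and Kcne1, made up the 4 members higher in AngII+ETH than in saline at an unadjusted p under 0.05, with 0 lower (3.5% and 4.01% of all genes). Among the 4, Kcne1 passed the filter only through the treated groups. Gjc1 had 2.48, 3.52 and 5.55 FPKM in saline libraries, 3.65, 5.18 and 6.53 with AngII and 3.80, 5.601 and 6.12 with AngII+ETH. Saline replicates 1 and 2 lay within the range of AngII, and replicate 2 within that of AngII+ETH. The log2 difference was 0.40 for AngII and 0.44 for AngII+ETH against saline (SE 0.16 each, limma adjusted p = 0.498 and 0.521). The first was 0.12 within the 13 libraries with both markers, where the index of saline and AngII did not overlap. Cacna2d1 had 8.82, 12.8 and 17.2 FPKM in saline libraries, 11.1, 17.6 and 18.7 with AngII and 15.5, 17.4 and 19.7 with AngII+ETH. Its lowest saline values were in replicates 6 and 4, those with high Adipoq, and the log2 difference for AngII+ETH against saline was 0.40 (SE 0.15, adjusted p = 0.521) with them and 0.23 without.

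The other 2 members that were lower in AngII at an unadjusted p under 0.05 were at most 3.19 FPKM in any library. Both reached the minimum mean of 1 FPKM in saline only, with 1.24 FPKM for Kcnk5 and 1.22 for Kcna1. That they were tested at all thus depended on the group in which they were high. Kcnk5 had 0.185, 0.924 and 3.19 FPKM in saline and 0.080, 0.490 and 0.862 in AngII. Its log2 difference of -0.47 (SE 0.22, limma adjusted p = 0.549) was -0.16 without saline replicates 4 and 6 and 0.044 with the Adipoq level as a covariate. Kcna1, a voltage-gated pore in the same cluster as Kcna5, at 6:126640397-126646384, was at 0.416 to 1.76 FPKM in saline and 0.284 to 0.930 in AngII (log2 difference -0.47, SE 0.19, adjusted p = 0.508). The highly expressed Kcnk3, Gja1 and Kcnj11 did not pass in any comparison. Gja1 was 75.2, 112 and 145 FPKM in saline libraries, 93.8, 121 and 136 with AngII and 95.6, 109 and 141 with AngII+ETH, and the groups overlapped.

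**Figure D5:**
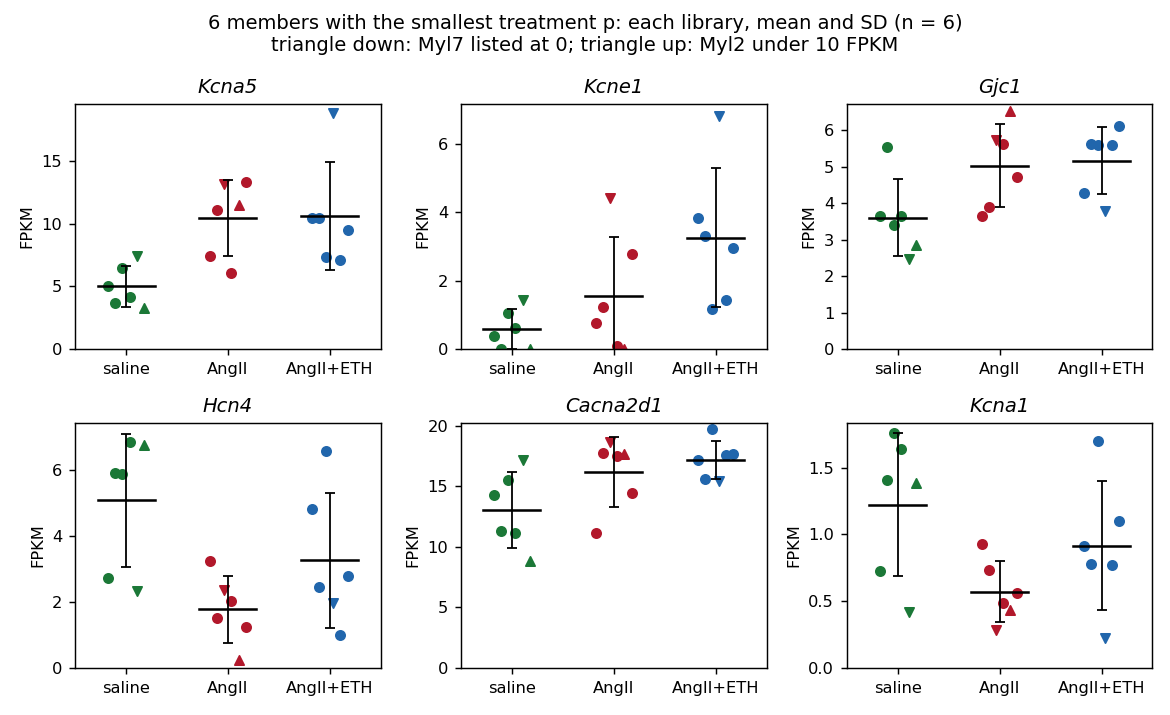
FPKM of the 6 genes with the smallest treatment p, by group, with 1 point per library, the mean as a line and the SD as a bar (n = 6); triangles pointing down mark the libraries with Myl7 listed at 0 and triangles pointing up those with Myl2 under 10 FPKM. Kcna5 is higher in AngII and AngII+ETH than in saline and Hcn4 lower in AngII, with groups that overlap in every plot.

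Kcnh2 varied in its makeup of transcripts. Its transcript of 4221 nucleotides held 14.1 to 40.4% of the gene in saline, 17.7 to 69.4% in AngII and 18.2 to 87.5% in AngII+ETH. The transcript of 3193 nucleotides held 58.5 to 82.7%, 29.6 to 80.04% and 10.2 to 80.1%. The longer form held more than the shorter in AngII replicates 2, 3 and 6 and AngII+ETH replicates 1 and 4, and in no saline library. Of the libraries with Myl7 at 0, it held 27.1% in the saline library, 69.4% in that of AngII and 87.5% in that of AngII+ETH. The second Gjc1 transcript, of 1890 nucleotides, was listed at 0 in 5 saline libraries, held 30.7% in saline replicate 6, inside the range of both treated groups, and held 7.17 to 49.0% in AngII and 9.29 to 54.7% in AngII+ETH. These shares were not tested. For Kcnip2, 1 transcript of 2395 nucleotides held 71.0 to 95.3% in every library, so its gene sum follows that form. For Gja5 the transcript of 3109 nucleotides held 62.8 to 99.3% outside saline replicate 5, where it was listed at 0.

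Genes that work with these channels were described from lists of 101 partners, of which 70 were tested. None passed between treatment groups (at an unadjusted p under 0.05, 9 were higher and 2 lower in AngII than in saline, where 3.28% and 5.78% of all genes were, 1 and 0 for AngII+ETH against AngII, where 1.26% and 0.649% were, and 5 and 0 for AngII+ETH against saline, where 3.5% and 4.01% were). Along the index 21 rose and 14 fell of the 70, where 32.6% and 7.3% of all genes did. With the values as deposited, rising partners were thus no more frequent than rising genes as a whole. Falling partners were more frequent than falling genes, as falling members were. Of 14 conduction transcription factors tested, 2 rose and 4 fell. Irx3, Irx4 and Irx5, Iroquois factors known to pattern channel and connexin genes in mouse ventricle, fell (-0.107, -0.154 and -0.074, limma adjusted p = 0.000988, 0.00079 and 0.00031). Tbx18 and Id2 rose (0.070 and 0.112). Irx4 is also one of the ventricular markers. Of 11 junction partners tested, 4 rose and 2 fell. The desmosomal cadherin Dsc2 rose (0.074, SE 0.010, adjusted p = 9.39e-05), and plakoglobin Jup and desmoplakin Dsp fell (-0.034 and -0.036). Of 9 calcium channel partners tested, 5 rose and 1 fell. Gem, an inhibitor of L-type channels, rose (0.091, SE 0.017), and Jph2, which holds the calcium channel near the store, fell (-0.041, SE 0.008). Of 7 sodium channel partners tested, 2 rose and 3 fell, and Rangrf, which aids traffic of the cardiac channel, fell (-0.108, SE 0.019). Of 17 other channels tested, 6 rose and 2 fell, and Tmem38a, a channel of the calcium store, fell (-0.049, SE 0.007).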

How the data were processed

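The 18 libraries, 6 per group, were grouped by the treatment in the labels. The authors deposited 1 table per library with a value per transcript, taken here as FPKM: the values are not whole, their sums differ between libraries, and low values times transcript length fall near whole multiples of 1 step per library (43.8 to 54.4% of values of up to 10 fragments within 0.05). On that reading 1 FPKM of a 1 kb transcript is about 64 to 81 fragments; counts were not recovered. Total RNA was depleted of rRNA, per the labels' protocols, and limma is named per the submitters' processing notes; not given in the sources used here are the aligner, assembler, build, annotation and strand setting. Saline and AngII files list 30883 transcripts and AngII+ETH files 30036, with 28886 in common. Of 20647 common Ensembl transcripts, 20478 were matched to GENCODE M21 and summed per gene, and 8239 unnamed assembled transcripts were left out.

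Log2(FPKM + 1) values of all 18 libraries were fitted with limma 3.58.1 (R 4.3.3, trend option) over the 11703 genes that average at least 1 FPKM in some group, with Benjamini-Hochberg adjustment over all of them. Slopes along the index, Myl7 or Myl2 kept the group as a covariate, and leave out the marker genes. Marker levels between groups were compared by exact permutation over 924 assignments. The scripts were tested on simulated data. Genes were named by rule: a list of 37 cardiac members (33 in the files), up to 5 members per direction with the smallest p in each treatment comparison, up to 10 called members per direction in each slope, and members listed at 0 in some libraries and over 5 FPKM in others. Other members are named where a count or a level calls for it, after their values were seen. Of the members, 5 are counted but not reported singly here. The members, gene lists and this rule were chosen with earlier results of these data known. Alternatives changed the scaling, pseudocount, filter, weights, covariates and libraries. The settings without the libraries with Myl7 at 0, without those with Adipoq over 100 FPKM, and with index and Adipoq together were chosen after seeing the data. Tables and figures were made with Python 3.11.15, pandas 2.3.3 and matplotlib 3.10.9.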

Additional observations from a re-analysis of the deposited data

Results flagged for a closer look

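In groups of 6 libraries, a lowest or highest library was marked when its gap to the next was large for the range of the group (Dixon's test). Of 134 such tests 14 were marked, and 5 of the 14 are in saline replicate 5. The number due by chance cannot be given. Many of these genes were named for their slopes or zeros in the same libraries, and Myl7 and Myl2 are among those tested. In that library Cacna1h was listed at 0 (others 11.7 to 27.8 FPKM), Gja5 was 0.175 (18.6 to 39.1), Kcnj3 4.86 (30.6 to 67.0), Kcnj5 11.8 (27.6 to 40.3) and Myl7 0 (1804 to 3519). Myl7 was also listed at 0 in AngII replicate 3 (others 1492 to 1983) and AngII+ETH replicate 4 (455 to 2921). In AngII replicate 3, Kcnh2 was 19.0 FPKM (others 26.6 to 32.3), and in AngII+ETH replicate 4, Kcng2 was 14.0 (4.92 to 7.36). In AngII replicate 5, Myl2 was 3.37 FPKM (others 3904 to 6019) and Kcnip2 7.34 (37.3 to 60.5).

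Elsewhere, Gja3 was 14.5 FPKM in saline replicate 1 (others 9.82 to 10.54). Kcnmb1, a subunit of the large-conductance potassium channel of smooth muscle, was 0 in AngII replicate 6 (others 0.421 to 0.660) and 4.46 in AngII+ETH replicate 6 (0.513 to 1.19). The summed smooth muscle markers were 909 FPKM in AngII+ETH replicate 6, against 142 to 432 in the others of its group; their part in the Kcnmb1 value was not tested.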

How the results depend on the processing

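Treatment calls stayed at 0 members under every alternative run. The counts below come without the shares of all genes under the same setting, so they show only how the calls moved. Along the index, 14 rose and 10 fell as reported. Rising members numbered 6 with quantile normalization, 7 with a filter at 5 FPKM, 5 with the Adipoq covariate, 6 without the 2 libraries farthest from the median, 3 without the 5 libraries in which Myl7 or Myl2 is under 10 FPKM and 1 without the 3 with Myl7 at 0. Falling members numbered 6, 5 and 2 with the Adipoq covariate, without the 2 farthest and without the 5. Leaving out 1 library gave 7 to 16 rising, the lowest without saline replicate 5, and 7 to 11 falling.

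Along Myl7, 11 rose and 5 fell. Rising members numbered 6 (quantile), 5 (filter at 5 FPKM), 5 (Adipoq) and 0 without the 2 farthest, the 5 or the 3 libraries; falling members numbered 0 in each of the last 3 and with Adipoq. Leaving out 1 library gave 4 to 12 rising and 0 to 6 falling, with 4 and 0 without saline replicate 5 and 1 falling without AngII+ETH replicate 4. Along Myl2, 12 rose and 2 fell. Rising members numbered 2 (array weights), 1 (Adipoq), 6 (without the 5), 3 (without the 2 with Adipoq over 100 FPKM) and 4 (without the 3). Falling members numbered 1 with median-of-ratios scaling, quantile normalization, a pseudocount of 0.1 or without the 3, 0 with array weights or Adipoq, 4 without the 5 or without the 2 with high Adipoq, and 9 without the 2 farthest. Leaving out 1 library gave 4 to 13 rising and 1 to 5 falling, with 4 rising and 5 falling without saline replicate 6. The causes were not tested; the settings that leave out libraries also have fewer samples.

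Directions that turned were those of Kcnj11 (-0.032), Hcn2 (-0.041) and Kcnk5 (0.044) for AngII against saline with the Adipoq covariate, and of Hcn4 (-0.055) and Gja3 (0.036) for AngII+ETH against AngII with the index and Adipoq. Slopes that turned were Kcnj5 along the index without the 3 libraries (-0.015), Cacna2d3 along the index (-0.0035) and Myl7 (-0.021) without the 5 and along Myl7 without the 3 (-0.026), Cacna2d2 along Myl7 without the 3 (-0.00016), and Kcna1 along Myl7 without the 5 (-0.126) and the 3 (-0.127).

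Leaving out 1 library moved the marker differences, in log2 units, as follows. For AngII against saline they ranged from -2.49 to 1.22 for Myl7, the highest without AngII replicate 3, from -0.459 to 2.65 for Myl2, the lowest without saline replicate 6, and from -4.11 to 0.655 for the index, with 0.305 without saline replicate 6. For AngII+ETH against AngII they ranged from -2.24 to 1.26 for Myl7, from -0.435 to 1.65 for Myl2 and from -3.89 to 0.370 for the index, with 0.256 without AngII+ETH replicate 4. For AngII+ETH against saline, Myl7 ranged from -2.93 to 0.684. Adipoq, AngII+ETH against AngII, ranged from 0.924 to 1.81, and without AngII+ETH replicate 4 the exact permutation test gave 1.81 with adjusted p = 0.026.

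No paired analysis was possible because the labels number no replicates; the numbers used here follow the order of the samples, only name a library and link no libraries across groups. Low FPKM limit Cacna1c and the other members under 1 FPKM.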
